A study of Homo sapiens with 6 samples.

Results

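The 3 angiomotins (AMOT, AMOTL1 and AMOTL2) and 7 further genes known as YAP targets whose products act inside the cell or at its membrane (AXL, ANKRD1, GADD45B, AJUBA, ARHGEF17, CRIM1 and FJX1) were followed through glucose deprivation and YAP knockdown. They were chosen by name, with earlier results of these data known, and all 10 were found among the 14987 genes of the deposited expression table. Their counts beside the shares of all genes are therefore no independent check. The data are 6 mRNA sequencing libraries of the established colorectal carcinoma line HCT116, and the question was which changes under glucose shortage need YAP. NC cells, which the labels give as wild type, provided 1 library in control medium and 1 after 6 h without glucose. Cells carrying the YAP knockdown constructs shYAP1 or shYAP3 each provided 1 library in the same 2 media, so that 2 NC libraries stood against 4 shYAP libraries and 3 deprived against 3 control libraries. The labels do not say whether NC cells carry a control hairpin, whether the lines are clones or pools, or whether replicate cultures were made. P-values therefore measure only the spread between these libraries, which may be technical, and NC cells were assumed to vary as shYAP cells did.

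YAP is a transcriptional coactivator that has no DNA-binding domain and reaches its genes through the TEAD factors. The Hippo kinases LATS1 and LATS2 phosphorylate YAP and hold it in the cytoplasm. Angiomotins are scaffold proteins of tight junctions and the actin cytoskeleton that bind YAP through PPxY motifs and keep it out of the nucleus, and AMOTL2 is itself a YAP target, so that the family also takes part in negative feedback. The energy sensor AMPK is known to restrain YAP when glucose is short, in part by phosphorylating angiomotins and YAP.

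Promoter windows of RefSeq (GRCh38.p14), 250 bases before to 50 after a transcription start, were found for 8 of the 10 genes, in 11 windows. They were searched on both strands for GGAATG, the core that TEAD factors bind, whose reverse complement is CATTCC. The other pattern was TGANTCA, with N any base, which takes in the sites of AP-1 factors and is its own reverse complement. GGAATG was in 4 of the 11 windows, 1 window each of ANKRD1, AMOTL2, AXL and AJUBA, against 14.0% of 35116 windows of the same length. TGANTCA was in 1, that of ANKRD1, where it read TGATTCA, against 7.71%. The 250 bases before the start are printed for ANKRD1, the one window with both motifs, and for AMOTL2, the angiomotin whose level rose after deprivation (below), with the motifs in capitals. The ANKRD1 stretch lies at chr10:90921088-90921337 and the AMOTL2 stretch at chr3:134374448-134374697, both on the minus strand.

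ANKRD1: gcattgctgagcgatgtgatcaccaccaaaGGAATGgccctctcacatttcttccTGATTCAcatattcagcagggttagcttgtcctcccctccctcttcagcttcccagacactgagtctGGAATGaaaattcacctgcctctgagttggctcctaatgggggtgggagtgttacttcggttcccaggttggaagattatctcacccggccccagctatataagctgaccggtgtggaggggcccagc
AMOTL2: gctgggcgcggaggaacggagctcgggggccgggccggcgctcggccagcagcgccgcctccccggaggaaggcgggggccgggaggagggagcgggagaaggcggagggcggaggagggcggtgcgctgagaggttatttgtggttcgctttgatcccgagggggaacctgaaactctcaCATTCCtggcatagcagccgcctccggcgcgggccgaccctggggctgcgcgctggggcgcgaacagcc

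In ANKRD1 the GGAATG matches begin 220 and 128 bases before the start and the TGANTCA match 195 bases before it, and in AMOTL2 the match begins 69 bases before it. AMOTL2, AXL and AJUBA each have 2 starts in the table, and only 1 of the windows of each holds a match. The matches of AXL and AJUBA are given with 12 bases on each side. The AXL site is at chr19:41226531-41226560 on the plus strand and the AJUBA site at chr14:22976884-22976913 on the minus strand.

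AXL: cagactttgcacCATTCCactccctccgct
AJUBA: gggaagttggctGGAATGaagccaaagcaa

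A match describes only the letters of these windows. The files hold no binding data, and which start is used in these cells was not measured.

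The libraries held between 16912634 and 22161075 listed reads, and 1 read was worth between 0.0406 and 0.0693 of the deposited normalized value. YAP1 itself had control values of 188 (NC), 35.7 (shYAP1) and 38.2 (shYAP3), against 154, 20.3 and 18.2 without glucose. Of 10 colorectal epithelial markers 8 were listed, with a summed level of 3372 to 4658 in control and 5435 to 6430 in deprived libraries, and CDX1 and LGALS4 were not listed. Of 7 fibroblast markers 4 were listed (COL1A2, DCN and LUM were not, and PDGFRB and THY1 were at 0 in at least 1 library), and their summed level was 8.23 to 10.5 in control and 3.05 to 6.33 in deprived libraries. Of 7 leukocyte markers 4 were listed (PTPRC, CD3E and LAPTM5 were not, and CD14 was at 0 in at least 1 library), at 17.95 to 20.1 in control and 22.2 to 38.1 in deprived libraries. Of 6 endothelial markers 3 were listed, at 3.61 to 4.87 and 3.74 to 7.96. The epithelial, fibroblast and leukocyte sums thus moved with the medium, with no overlap between control and deprived libraries, and their part in the responses below was not tested. All libraries are of the established line HCT116, and these sums are levels of named genes, not counts of fibroblasts or leukocytes. Of the fibroblast markers 1 had a value of 1 or more in at least 2 libraries, and of the leukocyte markers 3. In the NC control library most of the fibroblast sum was COL1A1. In bulk RNA the number of cells and the RNA per cell cannot be told apart. Both shYAP deprived libraries leaned towards short transcripts, and the shYAP3 one most. Among the longest 10% of transcripts its median deviation from the mean of the libraries on the log2(value + 1) scale was −0.29, and among the shortest 10% it was 0.44. For the shYAP1 deprived library these were −0.08 and 0.14, and the other 4 libraries leaned the opposite way.

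**Figure D1:**
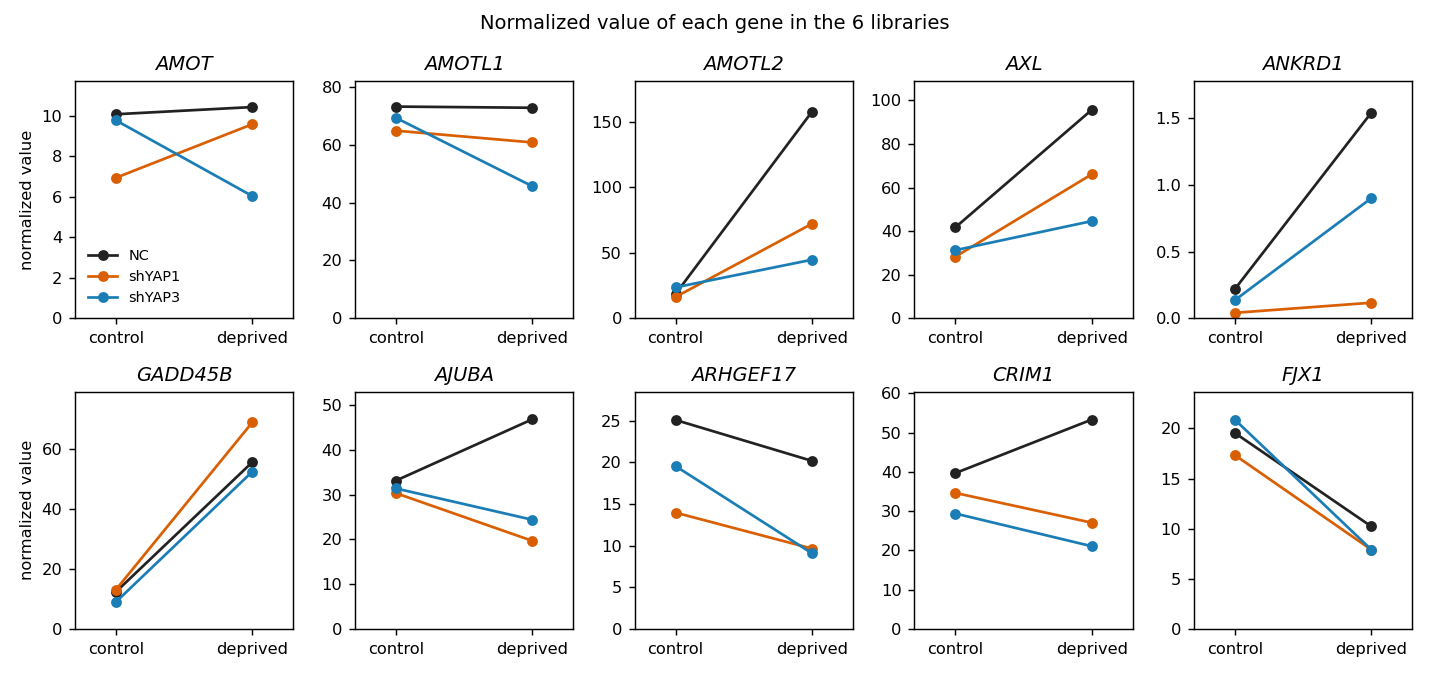
Normalized value (vertical axis, from 0) of each of the 10 genes in control and deprived medium (horizontal axis), with 1 point per library and lines joining the libraries of NC (black), shYAP1 (orange) and shYAP3 (blue) cells. AMOTL2, AXL and GADD45B are higher in every deprived library, FJX1 is lower in every one, and AJUBA and CRIM1 go up in NC and down in both shYAP lines.

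A gene was tested if 2 or more libraries had a normalized value of 1 or more, which left 9 of the 10 genes and set ANKRD1 aside. After deprivation 5 of the 9 passed limma at an adjusted p of 0.05, against 32.1% of all 12263 genes tested. AMOTL2, GADD45B and AXL rose and FJX1 and ARHGEF17 fell, which is 3 of 9 higher against 16.5% of all genes and 2 of 9 lower against 15.6%. The median log2 fold change of the 9 was −0.13, against 0.05 over all genes tested. In the values themselves, all 3 deprived libraries lay above all 3 control libraries for 3 of the 10 genes (26.8% of all genes tested) and below them for 1 of 10 (23.8%). The NC deprived library was the highest of the 6 for 6 of 10 genes, AMOT, AMOTL2, AXL, ANKRD1, AJUBA and CRIM1. Without ANKRD1, which was not tested, this was 5 of 9, against 12.9% of all genes tested. Fold changes from limma are of log2(value + 1), so the change of a low gene comes out too small.

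Among the angiomotins, AMOTL2 (ENSG00000114019) responded and the others did not pass. AMOTL2 had control values of 18.5 (NC), 16.2 (shYAP1) and 23.6 (shYAP3), against 158, 72.2 and 44.7 without glucose. The GGAATG match shown above is in the window of 1 of its 2 starts in the table. Every deprived library was above every control library, but the 3 lines, which differed little and in another order in control medium, spread apart after deprivation with NC highest. NC cells gained 139, shYAP1 cells 56.0 and shYAP3 cells 21.1, and the gain of the shYAP lines was 40.2% and 15.2% of that of NC cells. The mean went from 19.4 ± 3.76 to 91.6 ± 59.0 (SD, n = 3). Over all lines the log2 fold change was 2.00 (SE 0.31, limma adjusted p = 0.0032), and within shYAP cells alone it was 1.49 (SE 0.28, limma adjusted p = 0.031). The call within shYAP cells was lost with no filter (limma adjusted p = 0.12) and without the shYAP1 control library. The response over all lines passed in all 6 fits that left out 1 library, at 2.34 without the shYAP3 deprived library, and with the trends on transcript length and GC content removed it was 2.22.

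AMOTL1 (ENSG00000166025), which joins the same junctional and actin scaffolds, had control values of 73.2 (NC), 64.9 (shYAP1) and 69.3 (shYAP3), against 72.8, 60.8 and 45.7 without glucose. NC and shYAP1 cells held close to their control values, and the low value is that of the shYAP3 deprived library. The log2 fold change was −0.23 (95% interval −0.58 to 0.12, limma adjusted p = 0.27). It was −0.08 without the shYAP3 deprived library, and it passed as lower, at −0.53, only when each library was scaled to its listed reads (limma adjusted p = 0.043), a scaling that moved the median of all genes from 0.05 to −0.24. AMOT (ENSG00000126016), the founding member of the family, had control values of 10.1 (NC), 6.94 (shYAP1) and 9.77 (shYAP3), against 10.4, 9.58 and 6.03 without glucose. Its 3 lines went in different directions, and the log2 fold change was −0.05 (95% interval −0.50 to 0.40, limma adjusted p = 0.86). Transcripts of AMOT and AMOTL1 are long, at 7319 and 8970 bases, and fall in the length classes in which the shYAP3 deprived library had a median deviation of −0.23 and −0.29.

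The order of the family by level per kilobase changed with the medium in each line. Per kilobase of its longest transcript, the control level in NC cells was 8.16 for AMOTL1, 4.10 for AMOTL2 and 1.38 for AMOT. After deprivation AMOTL2 was first in NC cells, with 34.9 per kilobase against 8.11 for AMOTL1 and 1.42 for AMOT. The same change of first place was seen in shYAP1 cells, where AMOTL2 went from 3.59 to 16.0 per kilobase beside AMOTL1 at 7.23 and 6.78. In shYAP3 cells AMOTL2 went from 5.22 to 9.89 and AMOTL1 from 7.73 to 5.09 per kilobase. By the value itself AMOTL1 stayed first in deprived shYAP3 cells, at 45.7 against 44.7 for AMOTL2. Which transcript is used was not measured. AMOT was last in all 6 libraries.

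AXL (ENSG00000167601), a receptor tyrosine kinase bound by the ligand GAS6, rose over the 3 lines and was higher after deprivation in each of them. It had control values of 41.7 (NC), 28.2 (shYAP1) and 31.2 (shYAP3), against 95.6, 66.0 and 44.6 without glucose. The deprived libraries lay above the control libraries, and NC cells were highest in both media. The mean went from 33.7 ± 7.07 to 68.7 ± 25.6 (SD, n = 3). The deprived value was 2.30 times the control value for NC, 2.34 times for shYAP1 and 1.43 times for shYAP3, and the log2 fold change over all lines was 0.96 (SE 0.17, limma adjusted p = 0.0056). AXL did not pass without the NC control library (limma adjusted p = 0.053) or the NC deprived library (0.053), where the fit reduces to the shYAP lines. Of its relatives TYRO3 and MERTK and the ligands GAS6 and PROS1, 0 of 4 passed in limma, with 1, TYRO3, at an unadjusted p under 0.05 (45.4% of all genes).

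GADD45B (ENSG00000099860), a stress-induced protein that binds the kinase MAP3K4 and acts on growth arrest and survival, rose, with ratios of deprived to control close together in the 3 lines. Its value went from 12.4 to 55.7 (NC), from 13.1 to 69.0 (shYAP1) and from 9.04 to 52.5 (shYAP3), and the mean from 11.5 ± 2.19 to 59.1 ± 8.73 (SD, n = 3). Control and deprived libraries were far apart, and NC was not the highest line after deprivation. The ratios were 4.49, 5.25 and 5.81, and the log2 fold change was 2.27 (SE 0.18, limma adjusted p = 0.00016). The difference between the shYAP and NC responses was 0.28 with a 95% interval of −0.70 to 1.26, which includes 0. In its family GADD45A rose from 32.4, 33.5 and 27.6 to 155, 152 and 161 in the same order of lines (log2 2.29, limma adjusted p = 2.4e-05). CDKN1A, a cell cycle inhibitor that binds GADD45 proteins, rose too (log2 1.17, limma adjusted p = 0.0041), while MAP3K4 fell (−0.62, limma adjusted p = 0.019). Thus 3 of 7 tested genes of this list were higher and 1 was lower, beside 16.5% and 15.6% of all genes. MAP3K4 did not pass in 4 of the 6 fits without 1 library, those without an NC library or a shYAP control library (highest limma adjusted p = 0.11).

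FJX1 (ENSG00000179431), the human relative of the fly Golgi kinase four-jointed that acts on FAT and Dachsous cadherins, fell over the 3 lines and was lower after deprivation in each of them. It had control values of 19.5 (NC), 17.3 (shYAP1) and 20.9 (shYAP3), against 10.2, 7.90 and 7.90 without glucose. The mean went from 19.2 ± 1.79 to 8.67 ± 1.34 (SD, n = 3). No deprived library reached the lowest control library, and the shYAP lines were lower than NC after deprivation but lay on either side of it in control medium. The log2 fold change was −1.07 (SE 0.15, limma adjusted p = 0.0021), and FJX1 passed in all 6 fits without 1 library and in all 9 other settings. The cadherins FAT1 (log2 −0.71, limma adjusted p = 0.042) and FAT4 (−0.59, limma adjusted p = 0.024) fell too. With FJX1 these are the 3 genes of the list that were tested, and 15.6% of all genes fell. Both missed the threshold with the length and GC trends removed and in the 4 fits without an NC or a shYAP control library, where the highest limma adjusted p was 0.17 and 0.13, and FAT1 also did so with no filter.

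ARHGEF17 (ENSG00000110237), a guanine nucleotide exchange factor, fell after deprivation, and its values were lower in the shYAP libraries than in the NC libraries. It had control values of 25.1 (NC), 14.0 (shYAP1) and 19.5 (shYAP3), against 20.2, 9.64 and 9.08 without glucose. Both NC libraries lay above all 4 shYAP libraries, and each line was lower in deprived than in control medium. The log2 fold change of the response was −0.61 (SE 0.17, limma adjusted p = 0.029). It did not pass with length and GC trends removed (−0.26, limma adjusted p = 0.23), with no filter on low genes (limma adjusted p = 0.054), or without the NC control, NC deprived, shYAP1 control or shYAP3 control library (highest limma adjusted p = 0.17). Its longest transcript has 7853 bases, in the length class with the median deviation of −0.29 in the shYAP3 deprived library. Without that library the log2 fold change was −0.54 (limma adjusted p = 0.014).

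AJUBA and CRIM1 went up in NC cells and down in both shYAP lines, a pattern held by 2 of the 10 genes and by 4.59% of all genes tested. AJUBA (ENSG00000129474), a LIM protein of adherens junctions that binds and inhibits LATS kinases, had control values of 33.1 (NC), 30.3 (shYAP1) and 31.4 (shYAP3), against 46.8, 19.7 and 24.4 without glucose. The control libraries lay within a narrow range, and deprivation put NC above and both shYAP lines below it. CRIM1 (ENSG00000150938), a transmembrane protein that binds bone morphogenetic proteins, had control values of 39.7 (NC), 34.6 (shYAP1) and 29.4 (shYAP3), against 53.3, 27.1 and 21.1 without glucose. Averaged over the lines neither passed, at log2 −0.15 for AJUBA (95% interval −0.62 to 0.31, limma adjusted p = 0.58) and −0.13 for CRIM1 (95% interval −0.57 to 0.31, limma adjusted p = 0.63).

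Among the relatives of AJUBA, LIMD1 fell (log2 −0.92, limma adjusted p = 0.0040) and ZYX, the focal adhesion protein zyxin, rose (1.19, limma adjusted p = 0.0068), 1 of 6 other LIM proteins in each direction, beside 15.6% of all genes lower and 16.5% higher. ZYX did not pass without either NC library (highest limma adjusted p = 0.051). Of 9 other genes around bone morphogenetic proteins 3 rose, all of them ID genes, which are targets of these proteins, and 1, the receptor BMPR2, fell, beside the same 16.5% and 15.6%. ID3 rose from 46.2 to 164 (NC), from 39.1 to 197.5 (shYAP1) and from 46.5 to 172 (shYAP3; log2 1.99, limma adjusted p = 8.5e-05), ID2 by 1.37 (limma adjusted p = 0.00037) and ID1 by 0.66 (limma adjusted p = 0.014). ID1 missed the threshold when a shYAP control library was left out (highest limma adjusted p = 0.10) and when scaled to listed reads. BMPR2 was at log2 −0.48 (limma adjusted p = 0.040), and missed it in the 4 fits lacking an NC or a shYAP control library (highest 0.18) and with no filter.

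ANKRD1 (ENSG00000148677), a nuclear ankyrin repeat protein and a strong YAP target in many cells, was close to the limit of detection, although its window was the one with both motifs. It had 5 (NC), 1 (shYAP1) and 3 (shYAP3) reads in control medium, and 29, 2 and 13 without glucose. The NC and shYAP3 deprived libraries were above the control libraries, and the shYAP1 deprived library was not. The ratio of normalized values was 7.02 in NC (95% exact interval 2.69 to 23.2), 2.86 in shYAP1 (0.149 to 169) and 6.61 in shYAP3 cells (1.82 to 36.2). These intervals cover counting error only, and they overlap. With no filter on low genes its response did not pass in limma (adjusted p = 0.069) and passed in edgeR's quasi-likelihood test on the recovered reads (adjusted p = 0.026). Its relatives ANKRD2 and ANKRD23 did not pass the filter either.

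**Figure D2:**
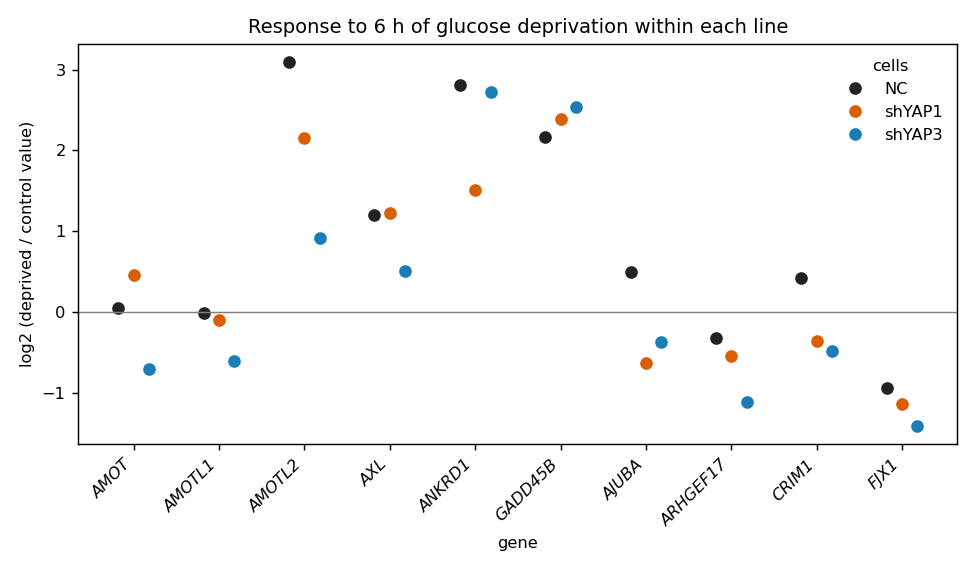
Log2 ratio of the deprived to the control value (vertical axis) for each gene, with 1 point per line and no pseudocount. GADD45B lies within a narrow range near the top, AMOTL2 falls from NC to shYAP1 to shYAP3 (ratios 8.52, 4.45 and 1.90), and AJUBA and CRIM1 are above 0 in NC and below 0 in both shYAP lines.

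The knockdown was then compared over both media, in 2 NC against 4 shYAP libraries. These come from 1 NC line and 2 shYAP lines, and the fit took the 2 libraries of a line as independent. Its intervals and p-values therefore rest on the spread between libraries, not between lines. YAP1 itself, at −2.63 (limma adjusted p = 0.00082), was the 1 gene of all tested that passed, in limma and in edgeR. The lack of calls among the other genes therefore says little. None of the 9 genes passed in limma or in edgeR, against 0.00815% of all genes in either tool, and 4 of 9 had an unadjusted p under 0.05 in each tool, against 7.32% of all genes in limma, and all 4 were lower, against 3.45%. All 9 estimates were below 0, against 51.4% of all genes, with a median log2 difference of −0.58 against −0.01. ARHGEF17 was at −0.80 (95% interval −1.22 to −0.38), CRIM1 at −0.72 (−1.18 to −0.25), AXL at −0.64 (−1.05 to −0.23) and AJUBA at −0.58 (−1.07 to −0.09), each at a limma adjusted p of 0.58. GADD45B was at −0.03 (−0.46 to 0.40) and FJX1 at −0.19 (−0.55 to 0.17). For 5 genes, AMOT, AMOTL1, AJUBA, ARHGEF17 and CRIM1, both NC libraries lay above all 4 shYAP libraries, 5 of 10 against 6.04% of all genes tested. In AMOT the margin was small, as the lowest NC value was 10.1 and the highest shYAP value 9.77. Transcripts of AMOT, AMOTL1, ARHGEF17 and CRIM1 are long, and the share of all genes is not matched for length. With length and GC trends removed, AMOT went from −0.33 to −0.23, AMOTL1 from −0.29 to −0.15 and ARHGEF17 to −0.60. CRIM1 was then at −0.62 and AJUBA at −0.47, and all 9 estimates stayed below 0.

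The lower levels in shYAP cells lay mostly in deprived medium. There both shYAP libraries were below NC for 9 of the 10 genes, GADD45B being the exception, against 34.3% of all genes tested. In control medium they were below NC for 7 of 10, against 40.3%. Without ANKRD1, which was not tested, these counts were 8 of 9 and 6 of 9. For AMOTL2 the shYAP1 and shYAP3 levels were 0.876 and 1.27 of the NC level in control medium and 0.457 and 0.283 after deprivation. For AJUBA they went from 0.916 and 0.948 to 0.420 and 0.521, and for CRIM1 from 0.873 and 0.741 to 0.508 and 0.395. ARHGEF17 differed from these in that it was already at 0.557 and 0.779 in control medium, and stood at 0.478 and 0.450 after deprivation. AXL kept its ratio in shYAP1 cells, 0.677 and 0.691, and went from 0.749 to 0.466 in shYAP3 cells. With length and GC trends removed, the log2 difference in deprived medium was −1.29 for AMOTL2, −0.96 for CRIM1 and −0.92 for AJUBA. ARHGEF17 was then at −0.725, AXL at −0.63, FJX1 at −0.33 and GADD45B at 0.04. AMOTL1 was at −0.20 beside −0.10 in control medium, and AMOT at −0.22 beside −0.25, so these 2 were not clearly lower in deprived medium.

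**Figure D3:**
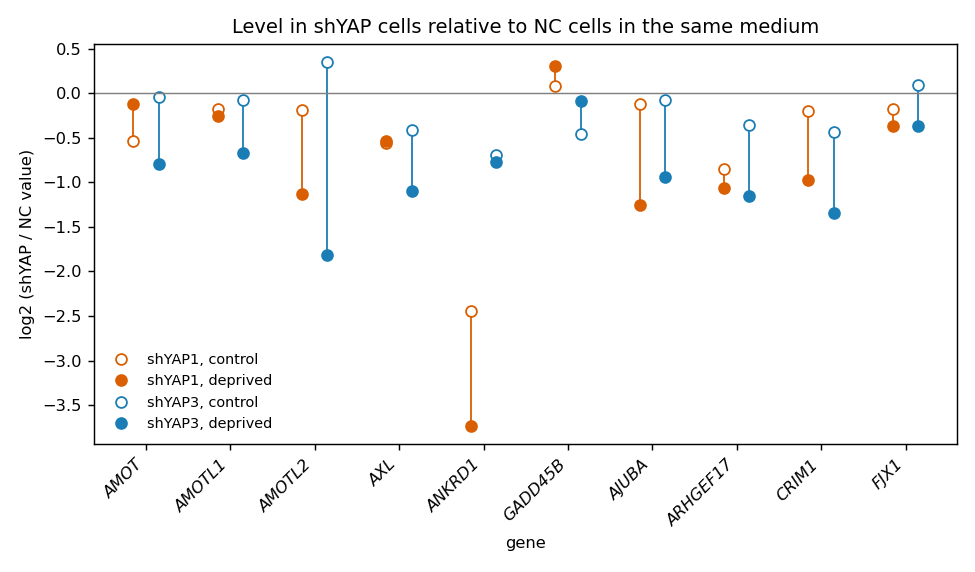
Log2 ratio of the value in shYAP1 (orange) and shYAP3 (blue) cells to the value in NC cells in the same medium (vertical axis) for each gene, open circles for control and filled circles for deprived medium. For AMOTL2, AJUBA and CRIM1 both filled circles lie well below the open ones, and those of ANKRD1 rest on at most 29 reads a library.

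Within deprived medium 2 shYAP libraries stood against 1 NC library. The median log2 difference of the 9 tested genes there was −0.81 against −0.00 over all genes. In control medium it was −0.17 against −0.02. YAP1 itself was at −2.94 in deprived and −2.32 in control medium, and in control medium even YAP1 did not pass in limma. In deprived medium 0 of 9 passed in limma (0.00815% of all genes) and in edgeR, and 5 of 9 had an unadjusted p under 0.05 in each tool, against 6.41% of all genes in limma. All 5 were lower, against 2.79%. These were AMOTL2 (−1.46, 95% interval −2.27 to −0.64), CRIM1 (−1.13), AJUBA (−1.06), ARHGEF17 (−1.03) and AXL (−0.81), each at a limma adjusted p of 0.65. In control medium 0 of 9 passed in limma or edgeR and 0 had an unadjusted p under 0.05, against 1.34% of all genes, while ARHGEF17 and AXL passed when either shYAP deprived library was left out (3.99% and 4.04% of all genes).

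The difference of the response between shYAP and NC cells was tested directly, with 1 NC library in each medium. None of the 9 genes passed in limma or in edgeR, and none of the 12263 genes did (0%). At an unadjusted p under 0.05 there were 2 of 9 in limma, AMOTL2 and AJUBA, and 3 of 9 in edgeR, against 0.905% of all genes in limma. For AMOTL2 the estimated difference (shYAP minus NC) was −1.53 on the log2 scale (95% interval −2.68 to −0.38, limma adjusted p = 1, and 0.29 with the line as a block). For AJUBA the difference was −0.96 (−1.73 to −0.19) and for CRIM1 −0.82 (−1.65 to 0.01), each at a limma adjusted p of 1. AXL (−0.33, 95% interval −1.25 to 0.59) and FJX1 (−0.30, −1.09 to 0.50) had smaller estimates whose intervals include 0.

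Without the shYAP3 deprived library 2 of 9 differences passed in limma, AMOTL2 at −1.19 and AJUBA at −1.11, against 2.19% of all genes. Without the shYAP1 deprived library 5 passed, AMOTL2, CRIM1, AJUBA, AXL and AMOTL1, against 22.3% of all genes. In both fits the spread rests on 1 pair of control libraries pooled over all genes, so that the calls say little about the spread of a deprived library. In the same 2 fits the comparison within deprived medium called 5 and 7 of 9, against 5.02% and 46.8% of all genes. Within shYAP cells alone 3 of 9 responses passed, against 11.5% of all genes, and 5 of 9 did with the line as a block, which added AXL and ARHGEF17, against 27.4% of all genes. In that fit too the spread is pooled over all genes.

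**Figure D4:**
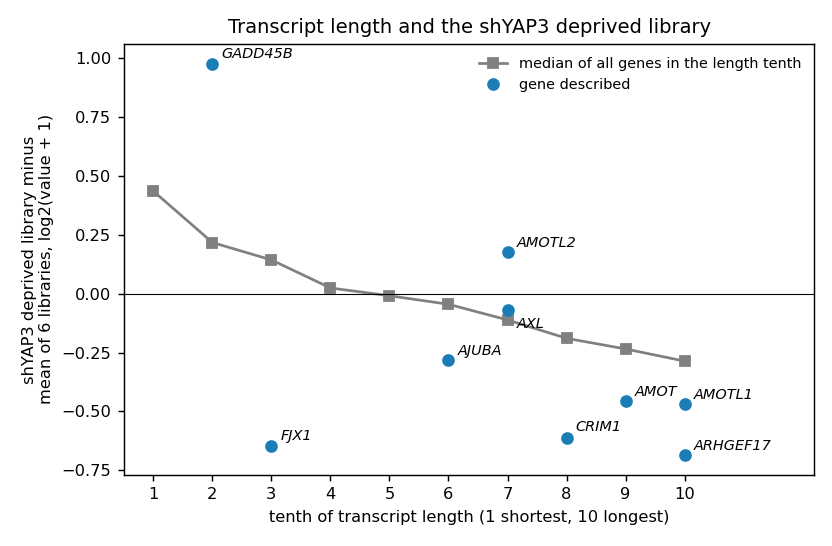
Deviation of the shYAP3 deprived library from the mean of the 6 libraries on the log2(value + 1) scale (vertical axis) against the tenth of transcript length (horizontal axis), for the median of all genes (grey) and for 9 of the genes (blue). The grey line runs from 0.44 for the shortest to −0.29 for the longest transcripts, and AMOT, AMOTL1, ARHGEF17 and CRIM1 lie in the 3 longest classes.

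The values of long transcripts in the shYAP3 deprived library concern 4 of the genes. CRIM1 deviated by −0.61 there, beside a median of −0.19 for transcripts of its length, and ARHGEF17 by −0.69 beside −0.29. AMOT deviated by −0.46 beside −0.23 and AMOTL1 by −0.47 beside −0.29. With the length and GC trends removed, the difference of the response was −1.46 for AMOTL2, −0.90 for AJUBA and −0.68 for CRIM1, against −0.09 for AMOTL1 and 0.04 for AMOT. The part of transcript length in the values of single genes was not tested further.

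The 2 constructs were compared in 4 libraries, averaged over the 2 media, so that opposite differences in the 2 media cancel. In this average none of the 9 genes passed in limma or edgeR, against 0.155% of all genes in limma. In either tool 0 of 9 had an unadjusted p under 0.05 (5.65%). The order of the constructs turned with the medium for AMOT, AMOTL1, AMOTL2, AXL and ARHGEF17. It held for AJUBA, CRIM1 and GADD45B, while for FJX1 the 2 constructs were level in deprived medium, at 7.90 each. AMOTL2, at −0.08, was 16.2 (shYAP1) and 23.6 (shYAP3) in control medium, and 72.2 and 44.7 without glucose. The estimate farthest from 0 was that of GADD45B, at −0.44 for shYAP3 minus shYAP1 (95% interval −0.92 to 0.04). In this fit the spread is pooled over all genes, and the interval leaves room for a difference in either direction for each of the 9 genes.

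Other genes of the pathway came from a signature of 22 YAP targets, 21 of which were listed. Of its 12 tested genes outside the 10 described, 5 rose and 1 fell after deprivation, where 16.5% and 15.6% of all genes did. In the knockdown over both media 0 of 12 passed in limma, 10 of 12 were below 0 (51.4% of all genes) and 6 had an unadjusted p under 0.05 (7.32%), with a median of −0.48. In the difference of the response 0 of 12 passed, 11 of 12 were below 0 (49.4% of all genes), and the median was −0.73 against 0.00 over all genes. Of 21 partners and regulators of angiomotins 3 rose and 2 fell after deprivation, shares no higher than the 16.5% and 15.6% of all genes. LATS2, the kinase that phosphorylates angiomotins and YAP and is itself a YAP target, went from 9.41 to 26.6 (NC), from 6.05 to 10.3 (shYAP1) and from 6.95 to 8.66 (shYAP3; log2 0.79, limma adjusted p = 0.021). NF2, the junctional protein merlin that binds angiomotins, went from 76.9, 48.9 and 59.3 to 57.0, 37.7 and 29.6 (log2 −0.59, limma adjusted p = 0.021). The ubiquitin ligases ITCH (log2 0.65) and NEDD4 (0.63) rose. LATS2 missed the threshold in the 3 fits lacking an NC library or the shYAP1 control library (highest limma adjusted p = 0.13) and when scaled to listed reads. NF2, ITCH and NEDD4 missed it in the 4 fits lacking an NC or a shYAP control library (highest limma adjusted p 0.14, 0.095 and 0.14). NF2 missed it also with length and GC trends removed, ITCH when scaled to listed reads, and NEDD4 when scaled so or with no filter. None of the genes named from these lists changed sign in any other setting.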

How the data were processed

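RNA of 6 HCT116 libraries was sequenced after oligo-dT selection, per the labels' protocols. Bowtie2, BWA and hg19 are named in the submitters' processing notes with no role. How the authors counted, annotated and scaled is not given in the sources used here. The deposited table holds a signal that the authors normalized per library, in which 100% of values were whole multiples of 1 read (tolerance 0.01 read). The 12263 genes reaching 1 in 2 or more libraries were tested on log2(value + 1) with limma 3.58.1 (R 4.3.3), a mean-variance trend and Benjamini-Hochberg adjustment over all of them, called at 0.05. Response and knockdown came from an additive model of genotype and medium. Comparisons within a genotype or medium, and the difference of the response, came from a model of the 4 group means, and the constructs from one of construct and medium. edgeR 4.0.16 on recovered reads, other scalings and left-out libraries were alternatives. Lines pair the libraries across media. The deviations of the shYAP1 line in the 2 media correlated at 0.102 across genes. Transcript length and GC come from the longest GENCODE v29 transcript, found for 98.0% of listed genes, and their trends were removed by loess. Gene symbols are those of the row identifiers. For AMOT a further column of the table names another gene, a microRNA. The members and gene lists were chosen with earlier results of these data known. The genes named are the 10 members, YAP1, up to 4 genes past the threshold per list, and the 3 genes with the profile nearest to AMOTL2, AXL and FJX1. TYRO3, MERTK, GAS6, PROS1, ANKRD2 and ANKRD23 are named beside them as list members that did not pass, chosen after their values were seen. The analysis was tested on simulated data. No listed gene is at 0 in the NC control library. Results for 1 gene list are not reported here.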

Additional observations from a re-analysis of the deposited data

Results flagged for a closer look

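AJUBA and CRIM1 moved one way in NC cells and the other way in both shYAP lines. The deprived minus the control value of AJUBA was 13.7 (NC), −10.7 (shYAP1) and −7.00 (shYAP3). That of CRIM1 was 13.6 (NC), −7.58 (shYAP1) and −8.33 (shYAP3). The test of the difference gave an unadjusted p of 0.021 for AJUBA and 0.052 for CRIM1 in limma, and an adjusted p of 1 for both, with 1 NC library in each medium. Among all genes tested, 4.59% showed the same pattern of signs.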

How the results depend on the processing

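Counts are of the 9 tested genes, or of 10 with ANKRD1 where no filter was used. The response (5, beside 32.1% of all genes) stayed within 1.5 times in all other settings, where 22.6% to 37.1% of all genes passed. It ranged from 3 to 5 without 1 library (8.86% to 43.3% of all genes). GADD45B, FJX1 and AMOTL2 passed in all 6 of those fits. Within shYAP cells (3, beside 11.5% of all genes) it was 0 with no filter (0%) and 6 scaled to listed reads (25.7%). It was 5 in edgeR with no filter (11.6%) and 5 with the replicate block of line (27.4%). Without 1 shYAP library, which leaves 1 in a group, it was low where few of all genes passed and high where many did. The difference of the response (0) was 0 to 5, the knockdown in deprived medium (0) 0 to 7 and in control medium (0) 0 to 2 without 1 library. Over all genes the difference called 0 to 2735 without 1 library, against 0.

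Signs turned only in estimates that had not passed. For AMOT the response was 0.014 with quantile normalization, 0.12 with trends removed (chosen after seeing the data) and −0.21 to 0.13 without 1 library, and its difference of the response 0.035 with trends removed and −0.44 to 0.15 without 1 library. With trends removed the response was 0.039 for AMOTL1, 0.0063 for AJUBA and 0.024 for CRIM1, and without 1 library −0.48 to 0.022 for AJUBA and −0.40 to 0.047 for CRIM1. The knockdown over both media was −1.46 to 0.076 for AMOTL2 and −0.17 to 0.11 for GADD45B without 1 library, and in deprived medium −0.022 for GADD45B scaled to listed reads and −0.083 to 0.30 without 1 library. The cause was not tested. Without a shYAP control or deprived library the constructs could not be compared with a test, and without an NC library the difference of the response could not be fitted. Depth limits ANKRD1, where 3 reads stand for 0.122 to 0.208.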

Other observations

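Over the 6 libraries, the profiles nearest to those of AMOTL2, AXL and FJX1 were found by Euclidean distance between log2(value + 1) values centred on each gene's mean. The search ran among the 12263 genes tested, with the genes described here left out. The nearest to AMOTL2 were FAM46B (distance 0.625), KRT80, a keratin (0.709), and ETS1, a transcription factor (0.871). KRT80 had control values of 1.63 (NC), 1.26 (shYAP1) and 1.41 (shYAP3), against 13.8, 4.82 and 2.91 without glucose, in the same order of lines after deprivation as AMOTL2. ETS1 had 9.11, 8.97 and 7.32, against 53.0, 31.3 and 28.3. The nearest to AXL were EXT1, which polymerizes heparan sulfate (0.199), SLC20A1, a phosphate transporter (0.294), and SYVN1, a ubiquitin ligase of the endoplasmic reticulum (0.348). The nearest to FJX1 were SKP2, a subunit of a ubiquitin ligase of the cell cycle (0.120), CABLES1 (0.141) and PLCD4, a phospholipase (0.143). These genes were picked for their likeness in the same libraries, so their values are a description.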
